A study of Mus musculus with 11 samples.

Results

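The p53 family and the proteins that hold p53 in check were examined in KP1 cells, a mouse small cell lung cancer (SCLC) line that is mutant for Rb and p53. The set was a list of 6 genes chosen by name: the family members Trp53, Trp63 and Trp73 and the negative regulators Mdm2, Mdm4 and Ppm1d. It was taken from 35056 genes to which the transcripts in the files were assigned, and 5 of the 6 had enough reads to be among the 14106 genes tested. Bulk RNA sequencing had been done on 2 control (untreated) and 3 irradiated KP1 samples, the latter collected 24 h after 5 Gy. The groups follow the treatment label (untreated or irradiated), since the protocol text of the labels is the same for all 5 samples and mentions the dose for the controls too. All 5 libraries come from the same line grown in suspension, so the Rb and p53 mutations are shared by both groups, and no p53 wild-type cells are in the comparison. The labels number the controls 2 and 3 and the irradiated samples 1, 2 and 3. They do not say whether these were separate cultures, so the P values measure only the spread between these libraries, which may be technical. The study's 6 leukocyte samples are not analysed here.

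p53 is a transcription factor that is stabilised after DNA damage and then switches on genes of cell cycle arrest and cell death. p63 and p73 share its DNA-binding domain, and each is made from a far start that gives a full transactivation domain (TA) and from an internal start that gives a shortened form (ΔN). Mdm2 is the ubiquitin ligase that sends p53 to the proteasome, Mdm4 is its partner that masks the transactivation domain, and Ppm1d is the PP2C phosphatase (Wip1) that removes the phosphates placed on p53 and on the damage kinases. In cells with working p53, Mdm2 and Ppm1d are themselves p53 target genes and rise after irradiation. Small cell lung cancer almost always lacks p53 function.

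The libraries held 21185956 to 31036317 estimated reads. The average read came from a transcript of 5465 and 4731 bases in the control libraries but of 3626 to 3999 bases in the irradiated ones, so that length moved with the groups. The 10 markers of neuroendocrine SCLC were all tested and summed to 2892 and 3060 TPM (reads per transcript length, scaled to the same total in each library) in control and 2798 to 3000 TPM in irradiated cells. Singly, 3 of the 10 were called higher, 1 lower and 6 not called (edgeR, adjusted P under 0.05), beside 12.7% higher and 13.0% lower of all genes tested. Their median log2 fold change, irradiated against control, was 0.47, against 0.02 for all genes. With an offset for transcript length none of the 10 was called. The 6 markers of basal squamous epithelium, where p63 is a lineage factor, summed to 2.96 and 3.48 TPM in control and 3.45 to 7.44 TPM in irradiated cells, with Krt5 and Krt15 at 0 reads throughout. The 6 markers of multiciliated epithelium, where p73 is needed, summed to 8.77 and 9.30 TPM in control and 10.4 to 11.4 TPM in irradiated cells. The sums were lower in irradiated cells for 7 leukocyte markers (4.55 and 6.89 TPM in control, 1.21 to 1.62 TPM in irradiated cells) and for 7 fibroblast markers (57.2 and 67.5 TPM against 37.0 to 51.9 TPM, Col3a1 at 0 reads). The 4 endothelial markers summed to 11 and 12.3 TPM in control and 7.73 to 10.8 TPM in irradiated cells, with none at 0 reads in all libraries. A single gene held most of the sum in every library for the basal (Ngfr), leukocyte (Cd68), fibroblast (Pdgfra) and endothelial (Tek) lists. The part of these lists in the results was not tested. In bulk RNA of a line, other cells in the culture and expression of such a gene by the line itself cannot be told apart. Nor can fewer cells of a type and less RNA per cell.

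Residual Trp53 reads were present in every library and were assigned almost entirely to isoforms with the longer last exon. Trp53 (chr11:69580359-69591873, plus strand, GRCm38) has 6 annotated isoforms in GENCODE M21. Trp53-201 and Trp53-203 are coding forms (1161 and 1170 coding bases) whose last exon begins at 69591350. In Trp53-202 and Trp53-206 the last exon begins 96 bases earlier, at 69591254. These isoforms encode the alternatively spliced p53 with a different C terminus. The junction is shown here because the isoforms that hold the residual reads part from Trp53-201 and Trp53-203 there. The lines give the last 30 bases of exon 10 in lower case and the coding part of exon 11, up to the stop codon, in capitals. That part has 79 bases in Trp53-201 (69591350 to 69591428) and 52 bases in Trp53-206 (69591254 to 69591305).
Trp53-201: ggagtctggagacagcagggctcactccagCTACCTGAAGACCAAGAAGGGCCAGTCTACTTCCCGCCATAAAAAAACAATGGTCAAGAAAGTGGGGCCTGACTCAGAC
Trp53-206: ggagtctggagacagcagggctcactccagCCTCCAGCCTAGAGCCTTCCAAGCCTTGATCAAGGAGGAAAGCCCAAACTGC

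Trp53 held 97 and 179 estimated reads in the control libraries and 227, 197 and 155 in irradiated replicates 1, 2 and 3. Of these, all 97 reads of control replicate 2 were assigned to Trp53-202. Control replicate 3 had 31.9 reads on Trp53-202 and 147 on Trp53-206. In the irradiated libraries Trp53-206 held 202, 197 and 155 reads and Trp53-202 none. Both isoforms with the longer last exon together took 100% of the reads in 4 libraries and 88.9% in irradiated replicate 1. The exception was irradiated replicate 1, which had 22 reads on Trp53-201 and 3.15 on Trp53-205, a processed transcript. Trp53-203 and Trp53-204 were assigned no reads in any library, which for Trp53-204 allows up to 3 reads in each library. Trp53-203 has the exons of Trp53-201 but ends at 69591872 and not at 69591873. The reads of these isoforms therefore cannot be told apart, and the 22 reads on Trp53-201 may belong to either.

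Trp53-202 and Trp53-206 differ from each other only by 46 bases at the start of the first exon and by 1 base at the end of the last. Their separation therefore rests on few reads at the ends, and Salmon divides such reads by a model whose error is not in the files. The usage test of these 2 isoforms did not pass (edgeR, adjusted P = 0.297 for the gene). Without control replicate 3 the gene passed (adjusted P = 0.0361), in a fit that kept 3 Trp53 isoforms. Salmon's values carry no read positions, so which Trp53 exons the reads covered, and whether the mutated part is among them, was not analysed here.

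**Figure D1:**
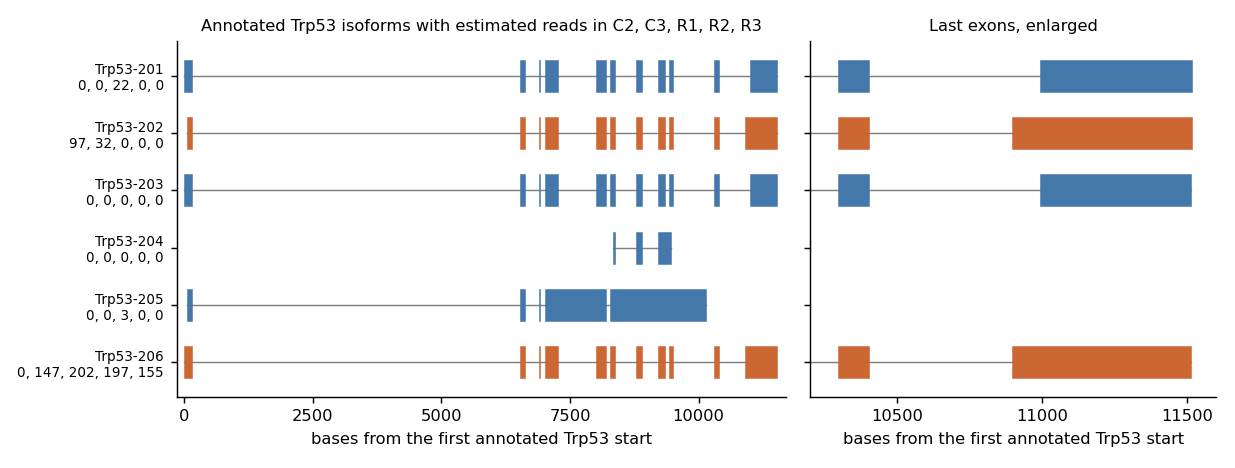
Exons (boxes) of the 6 annotated Trp53 isoforms by distance in bases from the first annotated start, with the last exons enlarged on the right. Orange marks both isoforms with the longer last exon, and the numbers under each name are the estimated reads in control replicates 2 and 3 and irradiated replicates 1, 2 and 3. The reads were assigned to the orange isoforms except for 22 on Trp53-201 and 3.15 on Trp53-205.

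At the gene level Trp53 was the lowest of the tested members in reads in every library, and in TPM in all but irradiated replicate 1. Its level was 4.01 and 8.0 TPM in control cells and 8.67, 8.20 and 5.67 TPM in irradiated cells, so the groups overlapped. The log2 fold change on reads, irradiated against control, was 0.64 ± 0.38 (SE, 95% CI −0.22 to 1.5, adjusted P = 0.230), and Trp53 was not called. The estimate depended on the controls, at 0.25 without control replicate 2 and 1.23 without control replicate 3, and neither passed the threshold (adjusted P = 0.697 and 0.0565). Wrap53, the neighbouring gene on the opposite strand, ends at 69580255, before the first annotated Trp53 base. Whether the library kept strand is not given in the sources used here, so reads that run past the start of either gene could not be told apart. Wrap53 had 459 and 337 reads in control and 361, 329 and 306 in irradiated cells. The protein-coding genes with the profile nearest to that of Trp53 across the 5 libraries, of 10776 compared on centred log2 CPM (CPM, reads scaled to the library total with TMM), were Cdk1 (Euclidean distance 0.06) and Ccdc59 (0.11).

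Trp63 (chr16:25683763-25892102, plus strand), the lineage factor of basal epithelium, was not detectable at this depth. It had 0 and 1 estimated reads in the controls and 3, 0 and 0 in the irradiated libraries, at or under the floor of 3 reads everywhere, and was not tested. The 1 read of control replicate 3 lay on Trp63-205 and the 3 reads of irradiated replicate 1 on Trp63-204. These isoforms share 1 internal annotated start, at 25801916. The other 6 annotated isoforms of Trp63 had no reads.

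Trp73 held more reads than the other family members in every library, and most of them were assigned to the far start. In TPM it was above Trp53 in 4 libraries and at 8.62 against 8.67 in irradiated replicate 1. Trp73 (chr4:154056253-154140208, minus strand) held 1086 and 1115 reads in control and 625, 857 and 1175 reads in irradiated cells. Trp73-204, which begins at 154140208 and is the only isoform with reads from that start, took 1008 and 1057 of these reads in control and 612, 849 and 1154 in irradiated cells. This was 92.8% and 94.8% of the reads in control and 97.9%, 99.1% and 98.2% in irradiated cells. Of the TPM it was 56.4% and 70.3% in control and 87.4% to 91.3% in irradiated cells. The 4 isoforms from the internal ΔN start at 154097167 to 154097173 had 0 and 19.1 reads in control and 7.29, 0 and 6.90 in irradiated cells, which is at most 1.71% of the reads of any library. Most of the remainder, except in irradiated replicate 1, lay on Trp73-207, a 759-base fragment annotated from 154085322. It had 78.1 and 39.1 reads in control and 6.01, 7.84 and 14.5 in irradiated cells. Trp73-205, from the ΔN start, overlaps every exon of Trp73-204 but the first 3. The division between these starts therefore rests on reads near the 5' end, which Salmon assigns by a model whose error is not in the files.

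The 250 bases upstream of the ΔN start (RefSeq, GRCm38.p6, chr4:154097174-154097423, minus strand) are shown because this is the promoter to which few Trp73 reads were assigned. They were searched on both strands for the 20-base p53 response element consensus, made of a pair of adjacent half-sites, with at most 2 mismatches. The capitals mark the match, which lies 66 to 47 bases before the start and has 2 mismatches.
Trp73 internal start: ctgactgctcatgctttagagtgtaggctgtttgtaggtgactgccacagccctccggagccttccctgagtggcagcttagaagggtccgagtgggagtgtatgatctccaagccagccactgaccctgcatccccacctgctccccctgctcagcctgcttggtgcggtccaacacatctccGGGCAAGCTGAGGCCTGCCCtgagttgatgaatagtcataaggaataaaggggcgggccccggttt
Such a match was present in 217 of 32851 upstream windows of the same length (0.661%). The table held 7 windows for 5 of the 6 genes, all but Trp63, and the other 6 windows had more than 2 mismatches at their best position. The Mdm2 window lay upstream of the start at 117710758, so the p53-responsive promoter inside the first intron of Mdm2 was not searched. The search describes letters in a window only.

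The level of Trp73 depended on the measure. In TPM it was 23.9 and 22.2 in control and 8.62, 12.8 and 16.1 in irradiated cells, with the groups apart. In CPM it was 38.0 and 41.8 in control and 24.9, 39.1 and 42.8 in irradiated cells, with the groups overlapping. The short Trp73-207 counts for more per read in TPM, where it made up 43.6% and 26.0% of the control level and 8.69% to 11% of the irradiated level. Trp73-204 alone was at 13.5 and 15.6 TPM in control and 7.74, 11.7 and 14.0 TPM in irradiated cells, again overlapping. The log2 fold change of the gene on reads was −0.17 ± 0.23 (SE, 95% CI −0.70 to 0.37, adjusted P = 0.629), and Trp73 was not called. Its sign turned with an offset for transcript length (0.22, adjusted P = 0.556) and without irradiated replicate 1 (0.04, adjusted P = 0.894). The nearest profiles were those of Vars2 (distance 0.12) and Fam20a (0.13).

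**Figure D2:**
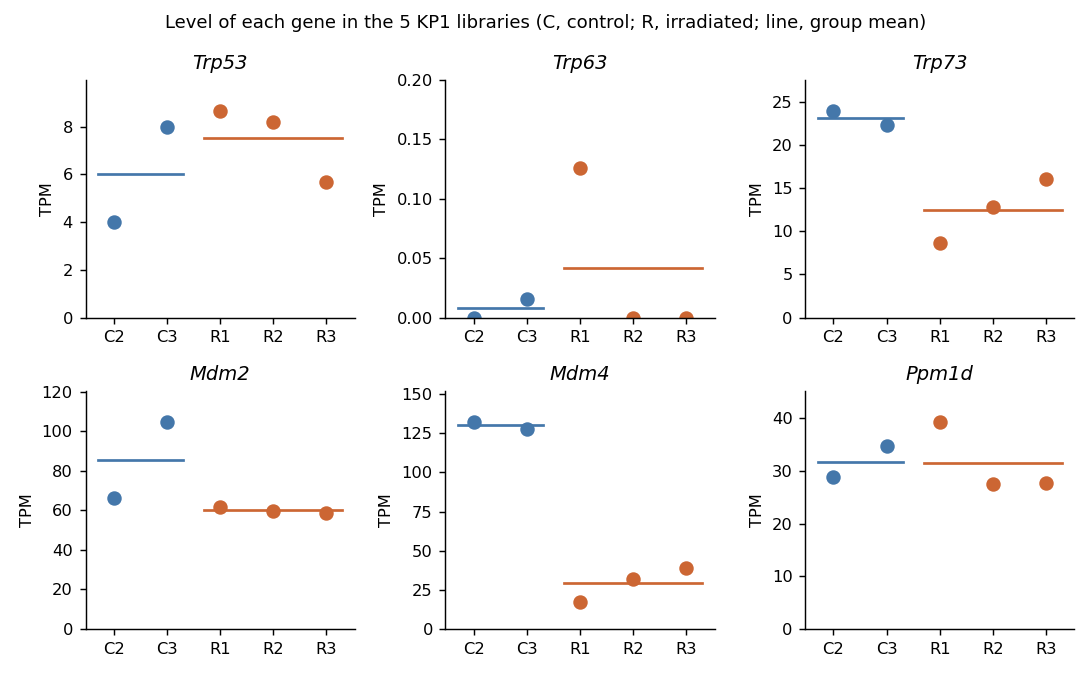
Level of each gene in TPM (vertical axes, each starting at 0) in control replicates 2 and 3 (C2, C3) and irradiated replicates 1, 2 and 3 (R1, R2, R3), with the mean of each group as a line. Mdm4 falls from 132 and 128 TPM to 17.2 to 38.6 TPM, Trp53 overlaps between groups, and Trp63 stays at or under 0.126 TPM.

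Among the negative regulators, Mdm4 was lower in irradiated cells, and Mdm2 and Ppm1d were not called in either direction. Of all genes tested, 12.7% were called higher and 13.0% lower at an adjusted P under 0.05, so 1 call lower among 5 tested genes is near the background. No member passed the study's added threshold of a log2 fold change above 1.5 or below −1.5, which 1.63% of genes passed upward and 1.90% downward.

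Mdm4 (chr1:132959484-133030561, minus strand) held 3661 and 4151 reads in control and 1316, 1577 and 2220 in irradiated cells. In CPM this was 128 and 156 in control and 52.4, 72.0 and 80.9 in irradiated cells, and the groups did not overlap, as was so in this direction for 29.3% of genes tested. The log2 fold change was −1.05 ± 0.20 (SE, 95% CI −1.51 to −0.59, adjusted P = 0.0117), 2.07-fold lower. The call held without any single library (adjusted P of 0.0131 to 0.0495) but not with the transcript length offset, which gave −0.50 ± 0.20 (adjusted P = 0.155) and under which 1.81% of genes were called lower, nor with the replicate block (−0.89, adjusted P = 0.0587). Mdm4 transcripts averaged 6086 bases, in the ninth of 10 equal groups of genes by length (4721 to 6117 bases). That group of 1410 genes had a median log2 fold change of −0.43, and 26.5% of it was called lower. Safb2 (distance 0.12) and Afap1 (0.13) had the nearest profiles.

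In TPM the Mdm4 difference was larger, from 132 and 128 in control to 17.2, 32.1 and 38.6 in irradiated cells, and short isoforms with a retained intron carried most of the excess. Mdm4-210, the 7105-base coding isoform, held most of the reads, 2743 and 3378 in control and 1169, 1362 and 1879 in irradiated cells. This isoform had a log2 fold change of −0.71 (unadjusted P = 0.0209, adjusted P = 0.163). The coding isoforms together were at 35.3 and 46.9 TPM in control and 11.7, 16.2 and 21.5 TPM in irradiated cells, so the groups were apart for these as well. Mdm4-204, a 496-base isoform with a retained intron, had 205 and 153 reads in control and 5.47, 21.3 and 38.7 in irradiated cells. Mdm4-211, of 762 bases, had 195 and 159 reads in control and 7.56, 46.9 and 24.4 in irradiated cells. Mdm4-205, of 1950 bases, had 92.0 and 63.0 reads in control and 11.1, 10.0 and 12.0 in irradiated cells. For each of these isoforms every irradiated library lay below both controls.

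Retained-intron isoforms, which are not translated into full Mdm4, took 13.5% and 9.42% of Mdm4 reads in control and 2.06%, 5.15% and 3.47% in irradiated cells. In TPM the share was 68.8% and 61.2% in control and 18.5%, 44.4% and 36.3% in irradiated cells. The fall was not particular to Mdm4: all transcripts annotated with a retained intron held 2.35% and 2.69% of reads in control and 1.23% to 1.76% in irradiated libraries. Over all 7896 such transcripts tested, the median log2 fold change was −1.02, against 0.21 for 26120 protein-coding transcripts. Mdm4-203 and Mdm4-214, annotated as subject to nonsense-mediated decay, showed no common direction. Mdm4-203 had 160 and 38.5 reads in control and 34.9, 19.5 and 48.5 in irradiated cells. Mdm4-214, which lacks exon 6 of Mdm4-210, had 0 and 43.9 reads in control and 32.7, 25.4 and 37.6 in irradiated cells. The processed pseudogene Mdm4-ps on chromosome X took 8 and 37.3 reads in control and 1 to 2.03 in irradiated cells, and some of these may belong to Mdm4.

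**Figure D3:**
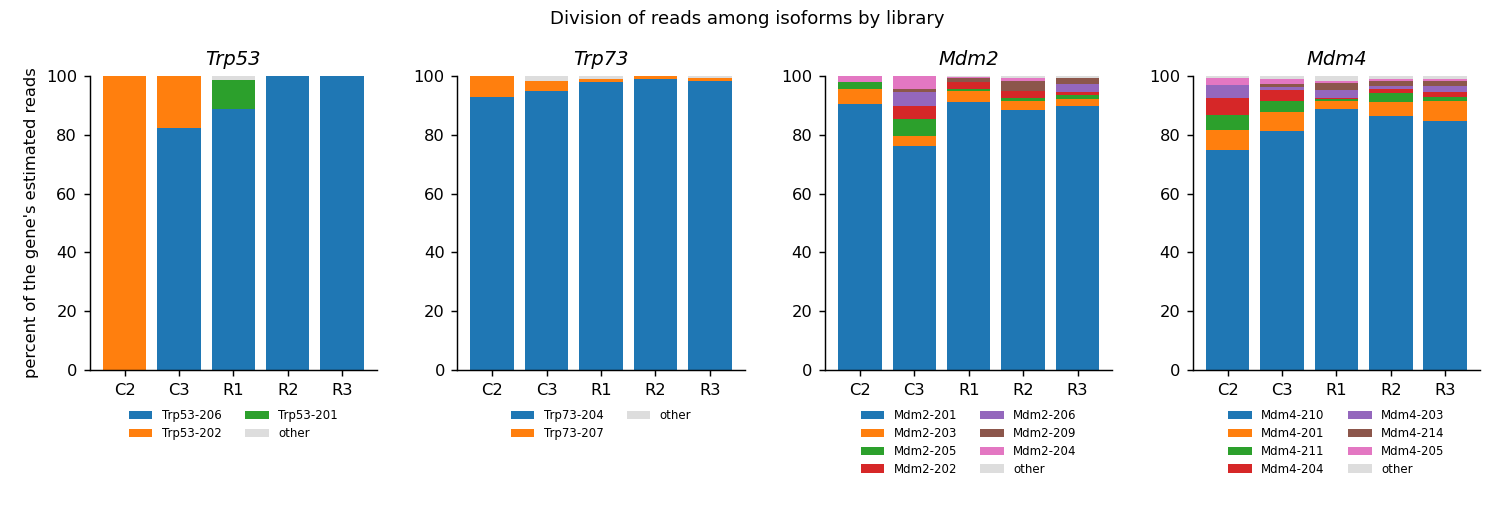
Share of each gene's estimated reads (percent, vertical axis) by isoform in the 5 libraries, with isoforms above 2% in any library shown by name and the rest in grey. Trp53 reads lie on Trp53-202 in C2 and mainly on Trp53-206 elsewhere, and the dominant Mdm4-210 takes 74.9% and 81.4% in control and 84.6% to 88.9% in irradiated cells.

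Mdm2 (chr10:117688875-117710758, minus strand) was not called in either direction. It held 1913 and 2412 reads in control and 2044, 1817 and 1988 reads in irradiated cells, or 67.0 and 90.5 against 81.4, 83.0 and 72.4 CPM, with the irradiated libraries between the controls. The log2 fold change was 0.00 ± 0.17 (SE, 95% CI −0.39 to 0.40, adjusted P = 0.991). In TPM the groups were apart, with both controls above the irradiated libraries at 61.5, 59.9 and 58.9. Control replicate 3 was high, at 105 against 66.2 in control replicate 2. The coding Mdm2-201 was at 39.2 and 46.0 TPM in control and 40.0, 37.5 and 36.8 TPM in irradiated cells, with the groups overlapping. It took 90.6% and 76.3% of Mdm2 reads in control and 91.3%, 88.5% and 89.9% in irradiated cells, so control replicate 3 stood apart from the other 4 libraries.

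Mdm2 has a constitutive promoter and a second, p53-responsive one inside the first intron, and the annotated starts downstream of the first were therefore counted apart. Starts from 117710685 to 117710758 held 97.8% and 89.7% of reads in control and 94.6% to 98.2% in irradiated cells. Mdm2-207, from 117710292, had 2 and 2.34 reads in control and 6.49, 11.6 and 12.9 in irradiated cells. The transcript's log2 fold change was 2.66 with an unadjusted P of 0.0716 and an adjusted P of 0.276. Mdm2-206 and Mdm2-209, which start at 117710078 and 117710022, together had 0 and 141 reads in control and 25.6, 64.5 and 94.1 in irradiated cells. Retained-intron isoforms took 4.16% and 10.2% of Mdm2 reads in control and 0.903%, 2.36% and 1.58% in irradiated cells. The nearest profiles to Mdm2 were those of Reep4 (distance 0.03) and Lmnb2 (0.05).

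Ppm1d (chr11:85311244-85347066, plus strand) held 1134 and 1280 reads in control and 1685, 1096 and 1252 in irradiated cells. Its level was 28.8 and 34.8 TPM in control and 39.3, 27.5 and 27.7 TPM in irradiated cells, and only irradiated replicate 1 lay above both controls. The log2 fold change on reads was 0.31 ± 0.20 (SE, 95% CI −0.15 to 0.77, adjusted P = 0.282). Ppm1d-201 held 99% to 100% of the reads of each library. Cdc14b (distance 0.06) and Fgfr1 (0.07) had the nearest profiles.

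Ordered by TPM, the control cells had Mdm4 first (128 and 132), then Mdm2 (66.2 and 105), Ppm1d (28.8 and 34.8), Trp73 (22.2 and 23.9), Trp53 (4.01 and 8.0) and Trp63, and no neighbours in this order overlapped. The first place of Mdm4 rested on its retained-intron isoforms, since the coding isoforms of Mdm2 (39.2 and 48.6 TPM) were above those of Mdm4 (35.3 and 46.9 TPM) in both control libraries. In irradiated cells Mdm2 came first (58.9 to 61.5), and Ppm1d (27.5 to 39.3) and Mdm4 (17.2 to 38.6) overlapped. Trp73 (8.62 to 16.1) lay below these and Trp53 (5.67 to 8.67) overlapped with the low end of Trp73. With 2 against 3 libraries, an exact two-sided permutation test of a single value cannot give a P below 0.1, so none is given for TPM or shares.

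**Figure D4:**
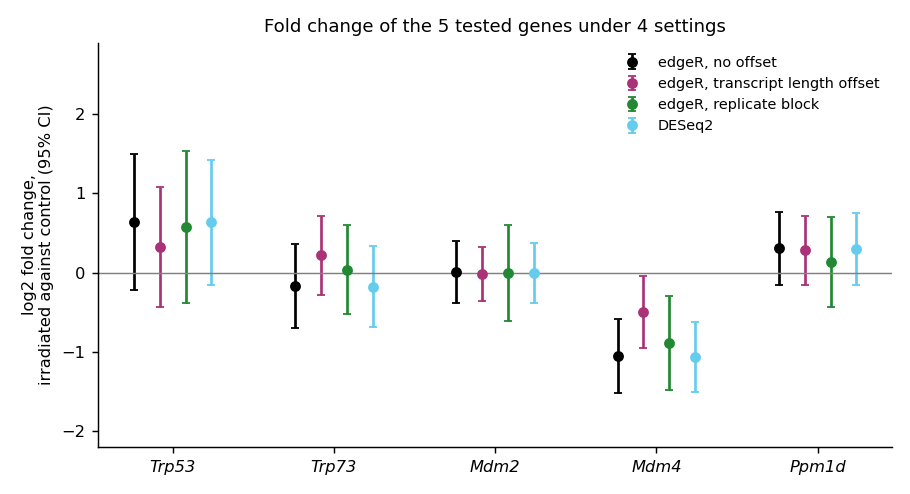
Log2 fold change, irradiated against control, of the 5 tested genes (points) with 95% confidence intervals (bars) under edgeR, edgeR with the transcript length offset, edgeR with the replicate block and DESeq2. Mdm4 is at −1.05 in the first and −0.50 with the length offset, and the other genes have intervals that include 0.

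At the isoform level, 33 of the 46 annotated transcripts of the 6 genes had reads and 21 were tested. None was called (smallest adjusted P = 0.104), and 6 had an unadjusted P under 0.05, all of them lower in irradiated cells. The lack of calls is no property of these genes, since edgeR called 0 of 40440 transcripts in all. At an unadjusted P under 0.05, 5047 of all transcripts were higher and 3360 lower. The 6 were Mdm4-204, Mdm4-205, Mdm4-210, Mdm4-211, Trp53-202 and Trp73-207, so most were isoforms of Mdm4, the gene called lower, and not separate cases. Of the 6, 3 were retained-intron isoforms of Mdm4, a class in which 78.1% of all tested transcripts had a log2 fold change below 0. The separation of Trp53-202 from Trp53-206 rests on few reads. The reason for the direction was not tested. The usage test, which asks whether a transcript moved relative to the others of its gene, called 2.12% of 9112 genes and none of the 4 members it covered, namely Trp53, Trp73, Mdm4 (adjusted P = 1.00) and Mdm2 (adjusted P = 1.00).

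The rest of the pathway was read from 7 lists with 86 genes, of which 85 were tested, 15 were called higher and 16 lower, beside 12.7% higher and 13.0% lower of all genes tested. These shares are the background for each list that follows. Among the 10 kinases that act on p53 or its regulators, 4 fell, 6 were not called and none rose, beside 13.0% of all genes called lower. The 4 that fell averaged 6919 to 12509 bases, longer than the length group of Mdm4 (4721 to 6117 bases, 26.5% called lower). The share called lower among genes that long is not given here. For the 10 kinases the median log2 fold change was −0.32, against 0.02 for all genes, and the median length 4733 bases. Atm, the kinase that signals double-strand breaks, was at 68.3 and 48.6 TPM in control and 13.2, 11.3 and 9.81 TPM in irradiated cells (log2 fold change on reads −1.33 ± 0.17, adjusted P = 0.00825). Prkdc (−1.22), Atr (−0.99) and Hipk2 (−1.68), which phosphorylates p53 at a serine tied to cell death, also fell. Chek1 and Chek2 were not called. With the transcript length offset, under which 1.81% of all genes were called lower and 2.41% higher, no kinase was called. Atm was then at −0.40 (adjusted P = 0.106).

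Of 10 other ubiquitin ligases of p53, Huwe1 (−1.74) and Ube4b (−0.76) fell and 8 were not called, and of 8 deubiquitinases, Usp7 (−0.62), which stabilises p53 and Mdm2, and Usp15 (−0.47) fell and 6 were not called. Of all genes 13.0% were called lower. The medians were −0.27 and −0.27. Among 15 cofactors 3 fell, 2 rose and 10 were not called (median −0.22). The acetyltransferases Crebbp (−1.35) and Ep300 (−1.33) and the damage-site protein Trp53bp1 (−0.74) were lower, and the deacetylase Hdac1 (0.60) and Ttc5 (0.63) were higher. Of 11 other PP2C phosphatases, relatives of Ppm1d, Ppm1l (−0.71), Ppm1h (−0.75) and Ppm1e (−0.48) fell and 8 were not called (median 0.07). None of these genes was called with the length offset, under which 1.81% of all genes were called lower and 2.41% higher. By length, the medians of the ligases and deubiquitinases were 3876 and 3803 bases, against 2895 bases for all genes tested.

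Of the 9 nucleolar and ribosomal inhibitors of Mdm2, 6 were called higher, beside 12.7% of all genes, 1 lower and 2 not called (median 0.81). Rpl11, a ribosomal protein that binds Mdm2 when it is not in ribosomes, rose by 1.49 ± 0.22 (adjusted P = 0.00886), and Rpl23 (1.33) and Rps7 (1.36) rose as well. Cdkn2a, the locus of the Mdm2 inhibitor p19Arf and of the cyclin-dependent kinase inhibitor p16Ink4a, was at 103 and 112 TPM in control and 306, 229 and 163 TPM in irradiated cells (1.39 ± 0.26, adjusted P = 0.0116). The isoform from the upstream start, that of Arf, held 895 and 838 reads in control and 2593, 1779 and 1459 in irradiated cells, and the Ink4a isoform 90.1 and 128 in control and 437, 293 and 246 in irradiated cells. Ncl, nucleolin, fell (−0.75). These genes are short (median 1391 bases). With the length offset 3 of the 9, Rpl11, Rpl23 and Rps7, were still called higher, beside 2.41% of all genes with that offset. Cdkn2a was then at 0.72 (adjusted P = 0.104).

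Of 23 p53 target genes 22 were tested, and 7 rose, beside 12.7% of all genes, 1 fell and 14 were not called (median 0.65). Bbc3, the cell death gene PUMA, was at 12.4 and 33.4 TPM in control and 67.6, 55.6 and 54.8 TPM in irradiated cells, and its log2 fold change on reads was 1.40 ± 0.24 (95% CI 0.85 to 1.95, adjusted P = 0.00954). Cdkn1a, the cell cycle inhibitor p21, was at 20.9 and 37.3 TPM in control and 59.7, 48.5 and 45.6 TPM in irradiated cells (1.12 ± 0.26, adjusted P = 0.0192). Bax, which opens the outer mitochondrial membrane, rose by 1.18 and Trp53inp1 by 0.82 on the log2 scale. Ccng1, a regularly used reporter of p53 activity in mouse cells, was at 90.0 and 70.7 TPM in control and 39.4, 56.8 and 74.5 TPM in irradiated cells (−0.22 ± 0.25, adjusted P = 0.542). The gene that fell was Zmat3 (−0.56), which the naming rule did not pick and which was chosen after its values were seen. With the length offset, under which 2.41% of genes were called higher, Bbc3 (0.99, adjusted P = 0.0370) and Trp53inp1 (1.28, adjusted P = 0.0295) were still called higher, Cdkn1a was at 0.82 (adjusted P = 0.0671), Bax at 0.51 (adjusted P = 0.114) and Zmat3 at 0.18 (adjusted P = 0.498). Fas had 0 reads in every library. Without control replicate 2, the calls over all 7 lists dropped to 2 higher and 4 lower.

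**Figure D5:**
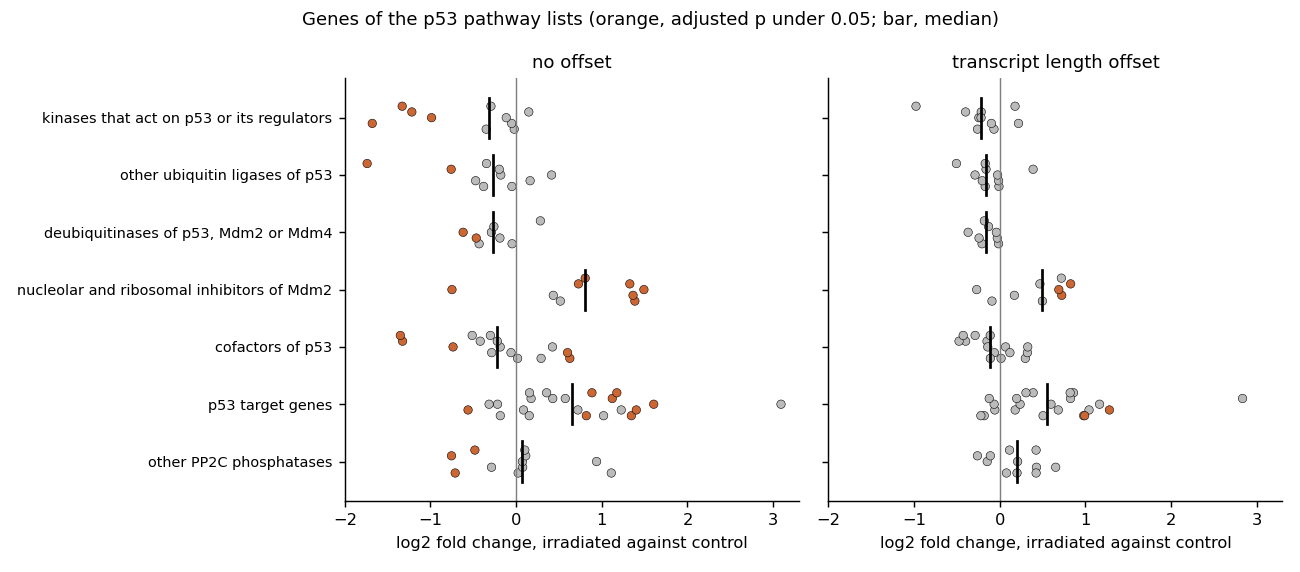
Log2 fold change, irradiated against control (horizontal axes), of the tested genes of the 7 lists (points), without an offset on the left and with the transcript length offset on the right. Orange points passed an adjusted P under 0.05 and black bars are list medians. The orange points on the low side, 16 on the left, are absent on the right, and 5 of 15 remain on the high side. Of all genes tested, 13.0% were called lower and 12.7% higher without the offset, and 1.81% and 2.41% with it.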

How the data were processed

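RNA of 5 KP1 samples had been sequenced on an Illumina platform. Per the submitters' processing notes, the tools were Salmon 0.8.2 and DESeq2 1.22.2 with the mm10 build; the annotation release is not given in the sources used here. The authors deposited Salmon's estimated counts (expected counts that need not be whole) per transcript, together with TPM and transcript lengths.

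Transcripts were matched by identifier to GENCODE M21 (GRCm38), 112762 of 113116 (99.69%), carrying 99.87% to 99.88% of the reads. Estimated counts were summed to 35056 genes and rounded. TPM, which weights a read by the inverse of transcript length, was summed without rounding. Irradiated and control libraries were compared in edgeR 4.0.16 (R 4.3.3) with its quasi-likelihood test after filterByExpr and TMM, and P values were adjusted by Benjamini-Hochberg over all features. diffSpliceDGE tested transcript usage. The same scripts were tested on simulated counts. The alternatives were DESeq2 1.42.0, its size factors, no filter on low counts, a transcript length offset (spline with 5 degrees of freedom in each library, which removes technical and biological trends alike), a replicate block and leaving out each library. Without a control, 1 control is left, which is assumed to vary like the irradiated libraries. Confidence intervals are 95%. The floor of 3 reads covers counting error only. Start sites within 200 bases counted as 1 start.

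The members and gene lists were chosen with earlier results of these data known. Genes named were the members, up to 4 called genes a list by smallest P, Cdkn1a, Bbc3 and Ccng1, and the 2 nearest profiles of each member among protein-coding genes with a mean of at least 100 reads. Ttc5, Ncl, Zmat3, Fas, Chek1 and Chek2 were added after their values were seen. Single values of some marker genes are not reported here.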

Additional observations from a re-analysis of the deposited data

How the results depend on the processing

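Mdm4 stayed negative under all 12 alternatives and was called lower under 9. Both counts include the crossed replicate block, which was chosen after the data were seen, and the fits that leave out 1 library each, which reuse the same data. It was not called with the length offset (−0.50), the replicate block (−0.89) or both (−0.33), and single libraries left out gave −1.19 to −0.89. Trp73, never called, turned positive with the length offset (0.22), the replicate block (0.037), both (0.41) and the crossed block (0.0378), and ranged from −0.31 to 0.0376 without single libraries. Mdm2, never called, was −0.0088 with DESeq2 and with its size factors, −0.0146 with the length offset, −0.0068 with the block, −0.0067 with the crossed block, −0.0379 with block and offset, and −0.18 to 0.26 without single libraries. Trp53 (0.25 to 1.23 without single libraries) and Ppm1d (0.12 to 0.47) stayed positive and uncalled throughout. For the results that changed, the cause was not tested.

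Genes called higher and lower numbered 1786 and 1827, but 340 and 256 with the length offset, 602 and 494 with the replicate block and 142 and 117 with both. The ranges without single libraries were 95 (without control replicate 2) to 2232 and 175 (without control replicate 2) to 1977. At the study's thresholds the 230 higher and 268 lower became 26 and 78 with the offset and 33 and 54 with both, 362 were higher without the filter, and 114 were lower with the block. Single libraries left out gave 33 to 754 and 23 to 517. The 15 higher and 16 lower genes of the pathway lists became 5 and 0 with the offset and 2 and 1 with both, 7 were lower with the block, and single libraries left out gave 2 to 19 and 4 to 14. Other scalings moved the median of all genes by under 0.1. The replicate numbers 2 and 3, which both groups carry, were not taken to pair the samples: the labels do not say whether equal numbers were handled together, same-numbered deviations correlated at −0.20 across genes, and the block gives irradiated replicate 1 no weight. The crossed pairing, chosen after the data were seen, called 3026 genes higher and 2670 lower, with 23 pathway genes higher.

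Transcripts called numbered 0, but 3 without the filter, and 0 to 93 without single libraries (93 without control replicate 3). The usage test called 193 genes, 126 without the filter and 7 with the replicate block, and 83 to 964 without single libraries. It called none of the members, except 1 (Trp53) without control replicate 3, so the range was 0 to 1. The share of Mdm4 reads in retained-intron isoforms differed by −7.92 percentage points, by −32.0 in TPM, and by −9.97 to −5.86 without single libraries. That of Trp73-204 differed by 4.58 points, by 26.2 in TPM, and by 3.59 to 5.57. The Mdm2-201 share differed by 6.44 points but reversed to −0.727 without control replicate 3, the range being −0.727 to 13.6. Trp53 isoforms with the longer last exon took 97.8% on average, and 97.2% to 100% without single libraries. Low depth limits the isoforms of Trp53 (97 to 227 reads a library for the gene) and Mdm2-207, and left Trp63 untested.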
